A study of Rattus norvegicus with 12 samples.

Results

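Stc1 and Stc2, the rat stanniocalcin genes, Adm, which encodes adrenomedullin, and Edn1, which encodes endothelin-1, were followed across cells of the F111 line. All probe sets whose only annotated gene symbol was one of these 4 names were taken, which gave 6 of the 31042 probe sets tested and 4 of the 14217 genes with a probe set of their own. Stc1 had 3 probe sets, 1377404_at, 1396101_at and 1387623_at, in order of mean intensity. Stc2 had 1369579_at, Adm had 1387219_at and Edn1 had 1369519_at.

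F111 is a normal fibroblast line of the Fischer rat. The A16 group was F111 cells grown on plastic for 16 h, and the Tumor group was cells recovered from subcutaneous tumours of nude mice 3 months after F111 cells that had spent 16 h in suspension were injected. The labels give DMEM with 10% fetal calf serum for both, whereas the methods describe a higher serum level and about a week of culture for trypsinised tumour explants, so the growth conditions of the groups and their cell type cannot be told apart. Neither source says how many tumours were used or whether mouse host cells were removed. Each group had 3 arrays, namely replicate 1, replicate 2 and a technical replicate 2 whose biological number the labels do not give. The last was assumed to repeat replicate 1, the only other array with a technical number, and is called the technical repeat in what follows. Averaging it with replicate 1 gave n = 2 replicates, and it is not stated whether these came from separate cultures or animals.

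Stanniocalcins are secreted glycoprotein hormones, first known from calcium control in fish. In mammals they act locally, and both are known to bind and block the pappalysin proteases that free insulin-like growth factors from their binding proteins. Adrenomedullin is a vasodilator peptide that signals through the receptor Calcrl paired with Ramp2 or Ramp3, and endothelin-1 is a vasoconstrictor peptide made in large part by endothelium. All 4 genes have been reported to respond to low oxygen in one cell type or another, Stc1, Adm and Edn1 through the hypoxia-inducible factors (HIF) and Stc2 also through ATF4 and the unfolded protein response.

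In Tumor cells Stc1 rose 13.3-fold on its brightest probe set and Adm rose 5.28-fold, while Stc2 and Edn1 did not pass the test. Among the 4 genes the log2 differences therefore ran from 3.74 ± 0.15 (SE, n = 2 replicates per group) for Stc1 down to -0.32 ± 0.12 for Edn1. A probe set was called when its adjusted p from limma (Benjamini-Hochberg over all tested probe sets) was under 0.05 and its fold at least 2. By that rule 4 of the 6 probe sets, all 3 of Stc1 and the 1 of Adm, were called higher and none lower. Across all tested features 5.51% of probe sets were called higher and 6.39% lower. With each gene represented by its brightest probe set, 2 of the 4 genes were called higher, against 5.45% of all genes higher and 5.44% lower.

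**Figure D1:**
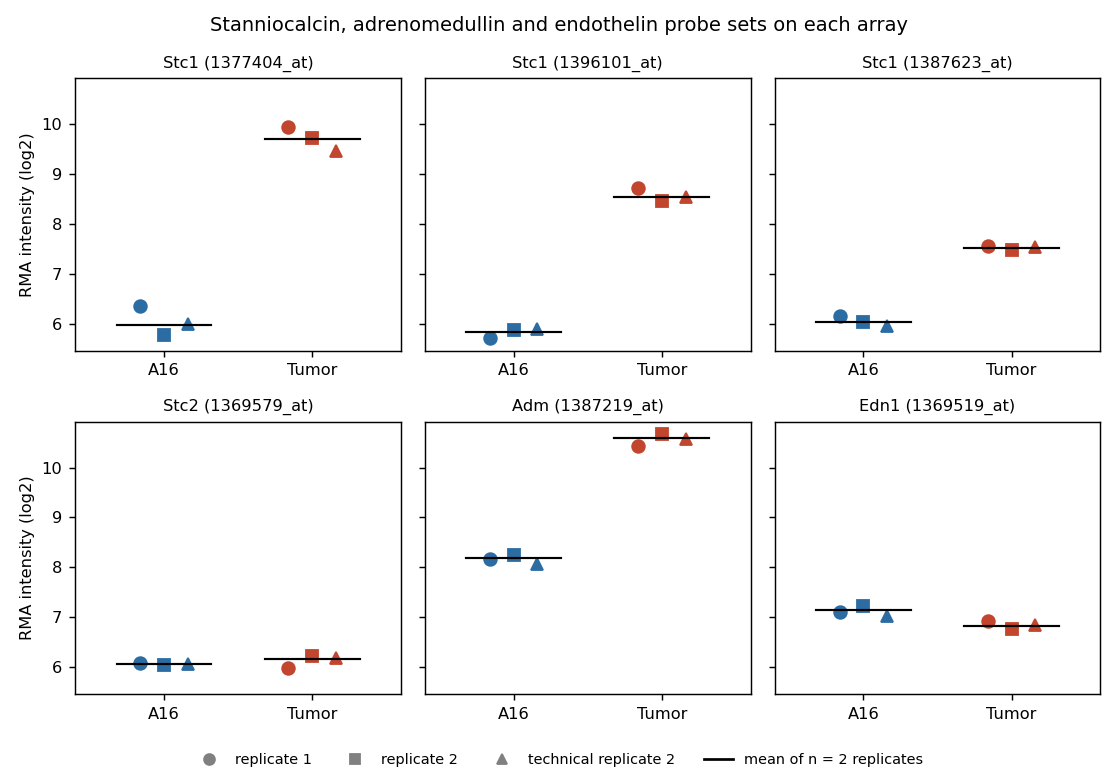
RMA intensity (log2, y axis) of the 6 probe sets array by array, for 3 arrays of A16 and 3 of Tumor cells. Symbols mark replicate 1, replicate 2 and technical replicate 2, and bars the mean of n = 2 replicates; the Tumor arrays lie above the A16 arrays for Stc1 and Adm, overlap with them for Stc2 and lie just below them for Edn1.

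Stc1 was low in A16 cells and clearly higher in every Tumor array. On the brightest probe set the log2 RMA intensities of the A16 arrays were 6.36 for replicate 1, 5.99 for its technical repeat and 5.78 for replicate 2, and those of the Tumor arrays were 9.95, 9.46 and 9.72 in the same order. The lowest Tumor array lay 3.10 above the highest A16 array, while the arrays of one group spread over at most 0.58. The difference was 3.74 ± 0.15 (SE; 95% confidence interval 3.37 to 4.11; limma adjusted p = 2.59e-05), a fold of 13.3 with an interval of 10.3 to 17.2. Of all tested probe sets, 68 had a larger rise.

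The other Stc1 probe sets rose too, but by less. Probe set 1396101_at read 5.71, 5.90 and 5.87 in A16 (replicate 1, technical repeat, replicate 2) and 8.72, 8.54 and 8.47 in Tumor, a difference of 2.71 ± 0.12 or 6.54-fold (limma adjusted p = 2.86e-05). Probe set 1387623_at read 6.16, 5.95 and 6.03 in A16 and 7.57, 7.54 and 7.49 in Tumor, a difference of 1.48 ± 0.11 or 2.79-fold (limma adjusted p = 0.000207). All 3 probe sets had every Tumor array above every A16 array, with gaps of at least 1.33 on the log2 scale. The largest of the 3 folds was 4.78 times the smallest, so the size of the Stc1 rise depended on the probe set read, whereas its direction and its call did not. A pattern of Tumor arrays wholly above A16 arrays was common, at 27.6% of all probe sets, and the opposite pattern was seen in 25.0%.

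How the probe signals were summarised mattered as well for Stc1. RMA and PLIER are 2 ways of condensing the probes of a probe set, applied here to the same arrays. On the brightest Stc1 probe set PLIER gave log2 intensities of 4.73, 4.60 and 4.54 in A16 and 10.25, 10.19 and 10.24 in Tumor, a fold of 49.2 in place of 13.3. On the linear scale the A16 values were 23.3 to 26.6, close to 16.0, the lowest intensity that PLIER gave on any array, a minimum read here as an offset already included, which no source states. With that offset taken as 1 the difference was 6.99 in place of 5.62. For 1396101_at the PLIER fold was 14.8 and for 1387623_at it was 2.95, and with PLIER the 3 log2 differences spanned 4.06 against 2.26 with RMA. All 3 were called under both, and PLIER called 7.39% of all probe sets higher.

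**Figure D2:**
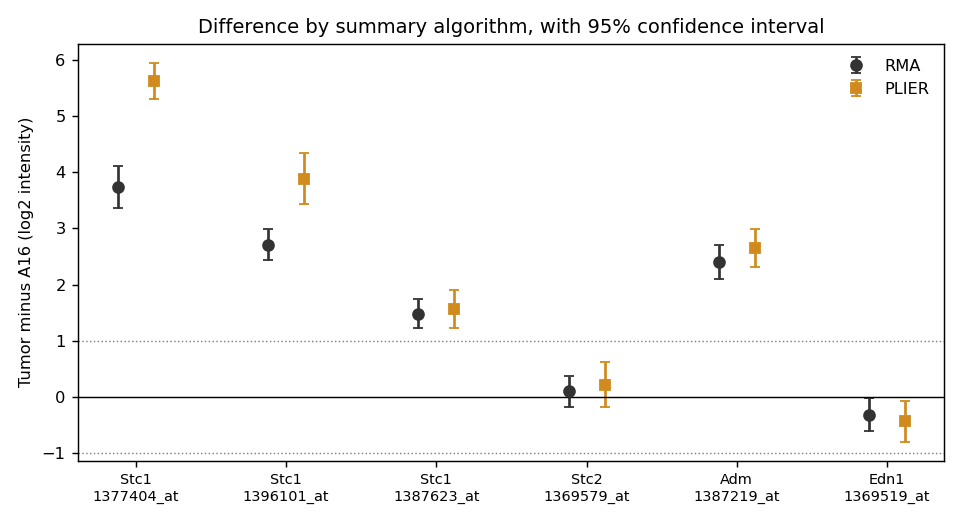
Tumor minus A16 difference (log2 intensity, y axis) for each probe set from RMA (circles) and PLIER (squares), with 95% confidence intervals from limma and dotted lines at a fold of 2 in either direction. The algorithms differ most for the brightest Stc1 probe set (3.74 and 5.62) and least for 1387623_at (1.48 and 1.56).

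Adm showed the second large rise. Its log2 RMA intensities were 8.17, 8.07 and 8.26 in A16 (replicate 1, technical repeat, replicate 2) and 10.43, 10.57 and 10.67 in Tumor. The groups were separated by 2.17, and no group spread over more than 0.25. The difference was 2.40 ± 0.12 (SE; 95% confidence interval 2.10 to 2.70; limma adjusted p = 5.26e-05), which is 5.28-fold with an interval of 4.30 to 6.49, and 267 probe sets rose by more. PLIER gave a similar 6.28-fold. Unlike the brightest Stc1 probe set, that of Adm lay well above the PLIER floor in both groups (at least 8.16 on the log2 scale), and the size of its rise changed little with the algorithm.

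Stc2 did not share the rise of its paralogue. Its RMA values were 6.08, 6.05 and 6.04 in A16 and 5.97, 6.17 and 6.23 in Tumor (replicate 1, technical repeat, replicate 2). The lowest of the 6 was a Tumor array and the others of that group were the highest, so the groups overlapped. The difference was 0.10 ± 0.12 (SE; limma adjusted p = 0.586) and its 95% interval corresponded to folds of 0.882 to 1.30, which leaves out a change of 2-fold in either direction on the RMA scale. PLIER gave an interval of 0.882 to 1.53. With a single probe set and no detection call used here, a low transcript and a poorly responding probe set cannot be told apart for Stc2.

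Edn1 was slightly lower in Tumor cells without being called. The A16 arrays read 7.10, 7.02 and 7.22 and the Tumor arrays 6.93, 6.83 and 6.76 (replicate 1, technical repeat, replicate 2). The groups did not overlap, but only 0.09 separated them, less than the spread of either group. The difference was -0.32 ± 0.12 (SE; 95% confidence interval -0.61 to -0.03; unadjusted p = 0.0358 and adjusted p = 0.0935, limma). Expressed as folds, Edn1 was 1.25 times lower, with an interval from 1.02 to 1.52. Without A16 replicate 1 the adjusted p was 0.048, though the fold stayed under 2.

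**Figure D3:**
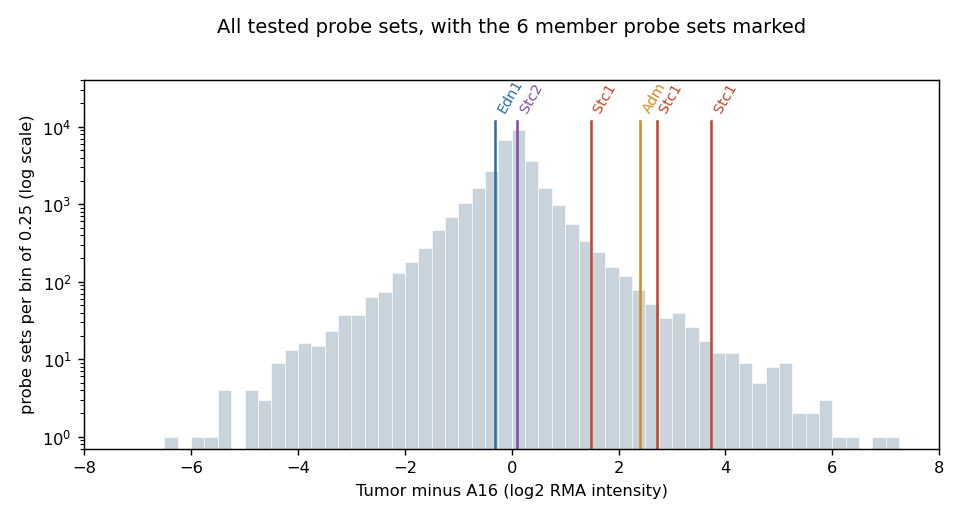
Distribution of the Tumor minus A16 difference (log2 RMA intensity, x axis) over the 31042 tested probe sets, with the number per bin on a log axis. Coloured lines mark the 6 probe sets; those of Stc1 and Adm lie in the upper tail, at or above the 97.3rd percentile, while Stc2 and Edn1 lie within the bulk.

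The sequences just upstream of the genes are shown because HIF binds a short core, ACGTG or GCGTG. RefSeq windows of the 250 bases before the annotated start were at hand for Adm, Edn1 and Stc2, on build GRCr8. They cover chr1:174179950-174180199 on the plus strand for Adm, chr17:22666688-22666937 on the minus strand for Edn1 and chr10:16755258-16755507 on the plus strand for Stc2. Each is printed 5′ to 3′ in the direction of transcription, with any core in capitals.
Adm: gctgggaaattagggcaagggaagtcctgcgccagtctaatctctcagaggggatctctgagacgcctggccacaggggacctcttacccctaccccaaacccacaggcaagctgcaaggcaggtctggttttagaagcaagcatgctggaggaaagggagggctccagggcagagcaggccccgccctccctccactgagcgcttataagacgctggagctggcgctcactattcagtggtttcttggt
Edn1: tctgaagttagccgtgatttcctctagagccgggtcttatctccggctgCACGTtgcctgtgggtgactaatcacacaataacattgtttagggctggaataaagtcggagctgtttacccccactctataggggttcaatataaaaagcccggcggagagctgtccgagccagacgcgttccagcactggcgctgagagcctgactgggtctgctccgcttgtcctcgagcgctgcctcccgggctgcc
Stc2: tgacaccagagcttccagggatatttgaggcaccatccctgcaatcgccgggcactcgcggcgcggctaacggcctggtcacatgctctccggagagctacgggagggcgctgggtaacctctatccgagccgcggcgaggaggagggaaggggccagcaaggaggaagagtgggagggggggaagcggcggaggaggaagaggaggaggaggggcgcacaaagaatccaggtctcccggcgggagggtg
Both strands were searched. The Edn1 window held 1 core, ACGTG read on the opposite strand, from base -201 to base -197 before the start. Neither letter string occurred in the windows of Adm and Stc2. Of 33469 RefSeq windows of the same length, 36.7% held at least 1 of the cores, 16.6% ACGTG and 25.9% GCGTG. The match in Edn1 is a description of letters. No window was at hand for Stc1, and bases outside these windows were not searched. Any link between cores and the Tumor differences was not tested.

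The partners of the stanniocalcins changed little. Beside the counts of this list and those below, 5.45% of all genes were called higher and 5.44% lower. Of 8 listed genes 7 were measured (Pappa was not analysed here), 1 was called higher and none lower, and the median log2 difference was 0.13 against 0.03 for all genes. The called gene was Hmox1, heme oxygenase 1, a stress enzyme which is known to bind stanniocalcin-2. It read 9.67, 9.64 and 9.78 in A16 and 11.07, 10.99 and 11.44 in Tumor, a difference of 1.52 ± 0.16 or 2.86-fold (limma adjusted p = 0.000838). Pappa2, the measured pappalysin, differed by 0.10 ± 0.16, and its substrate Igfbp5 by 0.56 ± 0.15 on the brightest of 5 probe sets, while the other Igfbp5 probe sets lay between -0.61 and 0.22. Igfbp4 and Lrp2 differed by 0.04 and 0.13. The store-operated calcium channel Orai1 stood at -0.66 ± 0.15, and its sensor Stim1 at 0.35 ± 0.17 on the brightest probe set and at -0.19 and -0.18 on the others.

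Genes around adrenomedullin held the most unequal picture. Of 10 measured genes (Adm2 was not analysed here) 1 was called higher and 2 lower, with a median of -0.06. Ackr3, an atypical receptor that takes up adrenomedullin and the chemokine Cxcl12, was at 5.21, 4.63 and 5.17 in A16 and 10.31, 10.23 and 10.01 in Tumor. Its difference of 5.10 ± 0.15 (limma adjusted p = 1.19e-05), or 34.2-fold with RMA, exceeded that of Adm itself. The A16 values were low, so that the size depends on how low signals are treated, and PLIER with an offset of 1 gave 6.61. Mme, neprilysin, a membrane protease that degrades adrenomedullin and endothelin, fell in Tumor cells from 8.46, 8.51 and 8.21 to 4.97, 4.78 and 4.75, by 3.53 ± 0.14 on the log2 scale or 11.6-fold with RMA. Here the Tumor values were the low ones, and PLIER with an offset of 1 gave a difference of -4.74. The arrays that read high for the one gene were thus those that read low for the other.

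The signalling receptor gave a different result. Both Calcrl probe sets read low in each group, between 5.55 and 5.76 for the brighter and between 4.59 and 5.01 for the other, and their differences were -0.09 ± 0.11 and -0.14 ± 0.14. The receptor activity-modifying proteins Ramp1 and Ramp3 differed by -0.03 and 0.05. Ramp2, which makes the adrenomedullin receptor with Calcrl, stood at -0.75 ± 0.24 (limma adjusted p = 0.0556). Crcp, a protein known to couple the receptor to its G protein, was at 0.42 ± 0.12, and the related peptides Calca and Calcb at 0.20 and -0.27.

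Pam, the enzyme that amidates adrenomedullin at its last step of maturation, was called lower at the edge of the rule. Its brightest probe set read 12.5 in A16 replicate 1 and its repeat and 12.6 in replicate 2, against 11.5 to 11.6 in Tumor, a difference of -1.01 ± 0.11. The call was lost at 6 of 13 alternatives because the fold came to just under 2, for example -0.96 with PLIER, and the adjusted p stayed under 0.05 in all of these. The probe set 1370502_at of Pam gave -1.72 ± 0.15 and 1370689_at gave -0.36 ± 0.11.

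Around endothelin, 8 of 11 listed genes were measured, since Edn3 and the receptors Ednra and Ednrb were not analysed here. None was called higher and 2 lower, with a median of -0.15. Ece1, the endothelin-converting enzyme that cuts the precursor to the active peptide, fell from 8.57, 8.94 and 8.68 in A16 to 7.15, 7.07 and 7.22 in Tumor, by 1.55 ± 0.11 on the log2 scale or 2.93-fold (limma adjusted p = 0.000203), and by 4.45-fold with PLIER. The second gene was Mme, already given. Ece2, the paralogue of Ece1, differed by -0.05 and the related peptide Edn2 by -0.04. The precursor proteases Furin and Pcsk7 were at -0.64 ± 0.31 and -0.25 ± 0.15, and the other listed proteases Kel and Cma1 at 0.16 and 0.03.

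**Figure D4:**
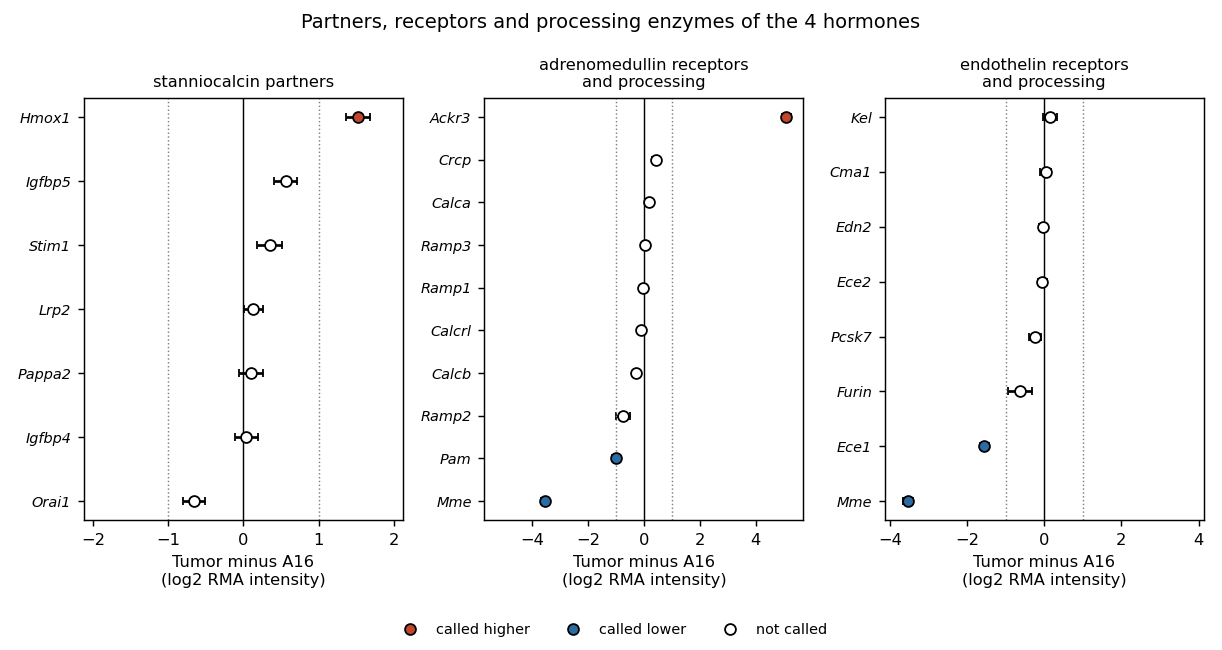
Tumor minus A16 difference (log2 RMA intensity, x axis, ± SE) of each measured partner, receptor or processing gene, by its brightest probe set, with filled points for called genes and dotted lines at a fold of 2. Ackr3 (5.10) and Mme (-3.53) stand apart, whereas Calcrl and the Ramp genes lie within a fold of 2.

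Regulators of the hypoxia response were unequal too. Of 9 measured HIF pathway factors (Hif1an was not analysed here) 1 was called higher and 1 lower, with a median of 0.23. Egln3, a prolyl hydroxylase that marks HIF for destruction and is itself known as a HIF target, read 7.70, 7.66 and 8.16 in A16 and 11.47, 11.42 and 11.58 in Tumor, which is 12.1-fold higher (3.59 ± 0.18, limma adjusted p = 4.32e-05). Arnt, the common partner of the HIF alpha subunits, was lower by 1.08 ± 0.24 on the log2 scale, with A16 arrays at 7.80, 7.46 and 8.31 and Tumor arrays at 6.98, 6.41 and 7.08. That call was lost at 4 of 13 alternatives, namely by fold without A16 replicate 2 (-0.74), by fold and adjusted p without Tumor replicate 1 (-0.89, limma adjusted p = 0.0975), with a PLIER offset of 1 (limma adjusted p = 0.0575) and by the plain test of the methods before adjustment. Hif1a passed the adjusted p (0.00277, limma) at 1.75-fold, under the fold asked. Epas1, Egln1 and Vhl were at -0.02, 0.43 and -0.47, each with an adjusted p over 0.05.

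None of the other secreted HIF targets was called higher. Of 15 measured (Pdgfb was not analysed here) 4 were called lower, with a median of -0.08 under RMA and -0.40 under PLIER. Nearest to a higher call was Tgfa, a ligand of the epidermal growth factor receptor, at 0.94 ± 0.12 or 1.93-fold (limma adjusted p = 0.0016) on its brighter probe set and 0.59 ± 0.12 (limma adjusted p = 0.0105) on the other. The 4 lower genes all act on collagen. The crosslinking lysyl oxidases Lox and Loxl2 fell 11.6-fold and 8.95-fold, and the collagen prolyl hydroxylase subunits P4ha1 and P4ha2, enzymes of the endoplasmic reticulum rather than secreted proteins, fell 2.76-fold and 2.97-fold. The second P4ha2 probe set gave -0.68 and was not called. Vegfa was at 0.66 ± 0.12 on its brighter probe set (limma adjusted p = 0.00615), which is 1.57-fold, and at -0.73 ± 0.26 on the other.

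Among 18 intracellular HIF targets, 2 were called higher and 2 lower, with a median of 0.01. The list name stands for targets that are not secreted, and it includes the membrane proteins Slc2a1 and Car9. The glucose transporter Slc2a1 rose 2.14-fold and the Myc antagonist Mxi1 rose 2.75-fold on its brighter probe set, while its other one gave 0.33 ± 0.14 (limma adjusted p = 0.137). Carbonic anhydrase Car9 fell 4.28-fold. Pdk1, a kinase that inhibits pyruvate dehydrogenase, fell 2.84-fold, with -0.87 ± 0.14 and no call on its second probe set. The glycolytic enzymes Ldha, Pgk1, Aldoa and Eno1 differed by -0.07, -0.13, -0.12 and -0.38. Of uncalled genes, Ndrg1, Bnip3 and Higd1a stood at 0.87, 0.81 and 0.47, and Ankrd37 and Bhlhe40 at -0.49 and -0.78. Each had a limma adjusted p under 0.05. Dimmer probe sets gave -0.82 for Ndrg1 (not called), 1.16 for Higd1a (called) and -1.32 for Pfkfb3 (called). Stc1, Adm and Egln3 thus rose where Car9 and Pdk1 fell. By the brightest probe set 14 of the 18 were not called, as were 12668 of all 14217 genes.

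**Figure D5:**
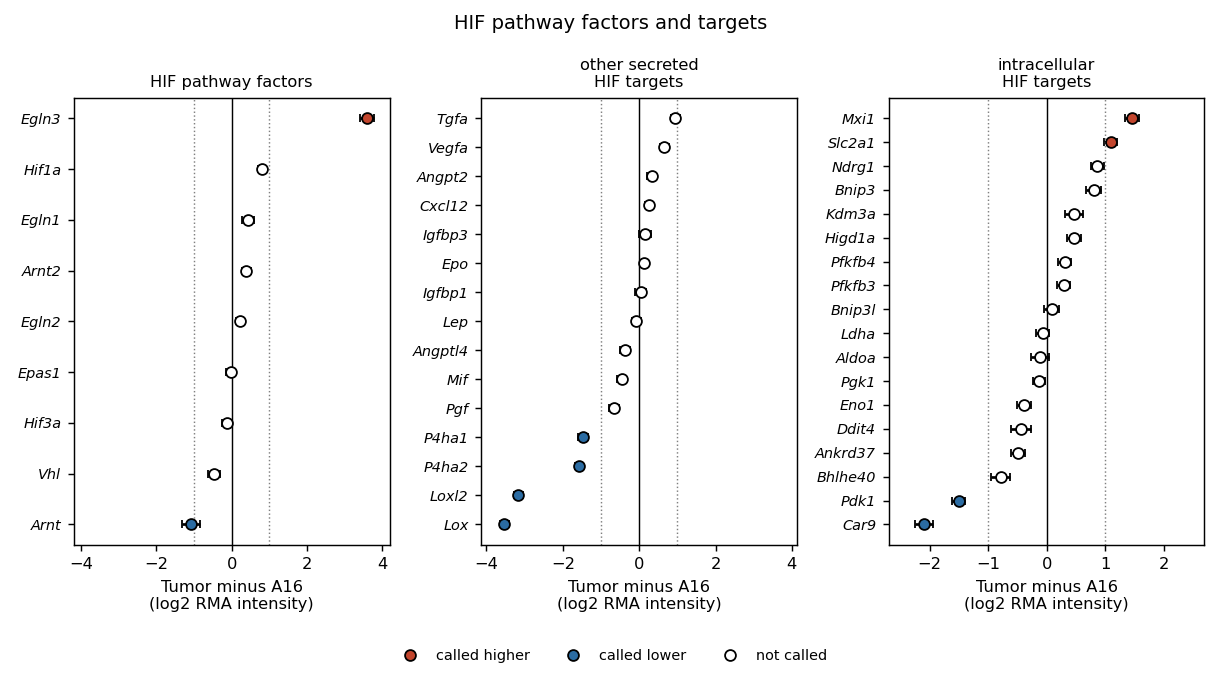
Tumor minus A16 difference (log2 RMA intensity, x axis, ± SE) of HIF pathway factors, other secreted HIF targets and intracellular HIF targets, by the brightest probe set of each gene, with filled points for called genes. Egln3 (3.59) is the highest point, and Lox (-3.53) and Loxl2 (-3.16) the lowest.

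The ATF4 and unfolded protein response list, to which Stc2 has been linked, had 1 gene called higher and 2 lower of 12. Its median was -0.36. For this list and the next, the shares over all genes were 5.45% called higher and 5.44% lower. Chac1, which degrades glutathione, rose 3.28-fold, the pseudokinase Trib3 fell 4.08-fold and the lipoprotein receptor Vldlr fell 3.21-fold, the last with -0.34 and no call on its dimmest probe set. Genes responsive to YAP, SRF and TGF-beta, pathways that act on Edn1 in other cells, were lower in 7 of 12 cases and higher in none, and their median was -1.69. The 6 largest falls were 27.3-fold in Tagln, 14.2-fold in Ankrd1, 8.98-fold in Ccn2, 4.62-fold in Tgfb2, 3.98-fold in Ccn1 and 3.39-fold in Smad7. With PLIER Tagln was 47.8-fold lower. For Ankrd1 the log2 difference was -3.82 with RMA, -3.93 with PLIER and -5.07 at a PLIER offset of 1. The dimmest Smad7 probe set gave -0.41 and was not called. Tgfbr2 was not analysed here. Edn1 itself stood within a fold of 2 beside them.

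Marker genes of other cell types were read on the same arrays. With RMA, 5.45% of all genes were called higher and 5.44% lower. Of 11 endothelial markers none was called with RMA, and their summed intensity was 885 to 1035 in A16 and 794 to 849 in Tumor. PLIER called Vwf higher (2.07-fold) and Tie1 and Egfl7 lower (3.09-fold and 2.11-fold). Of 10 macrophage markers 3 were higher, namely Csf1r (8.80-fold with RMA and 18.4-fold with PLIER), Fcgr3a (3.97-fold) and Cd68 (2.11-fold), and the summed intensity went from 1396 to 1573 in A16 to 2040 to 2141 in Tumor, whereas Ptprc and Adgre1 read at most 5.42 and 4.18 on any array. For epithelial markers 1 of 8 (Krt8, 2.83-fold) was higher, with sums of 956 to 1081 and 2244 to 2481. These sums were mostly Krt8, at 9.39 to 9.64 in A16 and 10.94 to 11.09 in Tumor (log2). No other epithelial marker read above 6.33 on any array. PLIER also called Cdh1 higher, at 2.72-fold. None of 6 adipocyte markers was called with RMA, with sums of 426 to 694 in A16 and 482 to 502 in Tumor. PLIER called Lpl (5.14-fold) and Fabp4 (2.05-fold) higher. Of 13 fibroblast markers 4 were lower (Col1a1, Col1a2, Thy1, Fn1) and 1 higher (Pdpn), while Vim and Pdgfra differed by -0.10 and -0.06. The part of any of these in the Stc1 and Adm differences was not tested, and fewer cells of a type and less RNA per cell cannot be told apart.

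The arrays also differed in their controls. The bacterial poly-A spikes averaged 7.64 to 8.14 on the A16 arrays and 4.75 to 4.92 on the Tumor arrays, and the 3′ probe set of beta-actin exceeded the 5′ one by 0.64 to 0.71 in A16 and by 2.25 to 2.37 in Tumor. For Gapdh the same measure was 0.31 higher in Tumor than in A16, against 1.64 for beta-actin. All 3 arrays of a group moved together, so a difference in spike amount, labelling or RNA quality cannot be told apart from the group. Arrays correlated within a group at 0.991 to 0.997 (Pearson, over probe sets) and between groups at 0.933 to 0.949, and their medians lay between 6.62 and 6.65.

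Likeness in pattern was measured by the root mean square distance between log2 RMA profiles over the 6 arrays, each gene centred on its own mean, among 14216 other genes. Nearest to Stc1 were Lyve1, a hyaluronan receptor, Plat, tissue plasminogen activator, and Ccdc88c, at 0.19, 0.19 and 0.21, and they were 12.2-fold, 11.8-fold and 10.6-fold higher in Tumor cells. Nearest to Adm were Fosb, a subunit of AP-1, Rmdn2 and the transcription factor Rfx2, at 0.09, 0.09 and 0.10, with rises of 5.42-fold, 4.96-fold and 5.31-fold. Profiles were not scaled, so the measure mostly picks genes with a similar difference, and the folds of the nearest genes follow from it. With PLIER the log2 differences of Lyve1, Plat and Ccdc88c were 3.50, 3.67 and 3.46, against 5.62 for Stc1. Adm, whose difference was smaller, ranked 144th from Stc1 by this measure. The genes nearest to Stc2 (Syk, Slc51a, Grin3b) and to Edn1 (Jhy, Nucb2, Mdm4) lay at 0.02 to 0.03. They were not called with RMA either, so the measure there compares RMA profiles that hardly varied. With PLIER Grin3b differed by 1.55 against 0.11 with RMA, and Jhy by 0.10 against -0.34.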

How the data were processed

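The 12 sample records are 6 Affymetrix rat expression arrays, each summarised by RMA and by PLIER. Both columns, as the authors deposited them, hold linear intensity from the tools named in the submitters' processing notes, with versions not given in the sources used here. Per the study's methods the arrays were scanned in GCOS and summarised in Avadis. Values were converted to log2. Of 31099 probe sets 57 array controls were left out of tests. By the platform annotation 20826 probe sets had a single gene symbol, 436 had more and 9780 had none. Technical replicate 2, whose biological number the labels do not give, was assumed to repeat replicate 1 and averaged with it, and the groups were fitted with lmFit and eBayes (limma 3.58.1, R 4.3.3), two-sided. P-values measure the spread between these samples, which may be technical, and the number of arrays limits the precision. The fit code was run on simulated data with a common spread for all probe sets, which does not test the p-values of these arrays. A gene in a list stands for its brightest probe set. Named were the members, up to 6 called genes of each list by size, every partner and receptor, 5 regulators and the 3 nearest genes. Some uncalled target and marker genes were also named, by choice rather than by this rule. Members and lists were chosen with earlier results of these data known. Alternatives were PLIER with either offset, other treatments of the technical repeat, a filter at the 30th percentile, renormalisation, an intensity trend, a replicate block, the methods' test and leaving out each replicate.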

Additional observations from a re-analysis of the deposited data

How the results depend on the processing

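The 13 alternatives other than the adjusted plain test kept the call of Stc1 and Adm and left Stc2 and Edn1 uncalled. Log2 differences ranged from 3.54 to 6.99 for the brightest Stc1 probe set, 2.31 to 2.72 for Adm, 0.02 to 0.36 for Stc2 and -0.47 to -0.24 for Edn1, whose adjusted p ran from 0.048 to 0.386. After Benjamini-Hochberg adjustment of the methods' t-test no member was called, at unchanged differences of 3.74 for Stc1 (adjusted p = 0.0754 by that test) and 2.40 for Adm (adjusted p = 0.0726), and 12 probe sets were called in all, against 3694 in the limma fit and 3100 before adjustment. PLIER with an offset of 1 in place of the presumed 16 called 5764 probe sets and gave the largest Stc1 difference, 6.99. Leaving out 1 replicate gave 3385 to 4305 calls, and leaving out technical replicate 2, whose pairing with replicate 1 is assumed, 3762. With the replicate block, 3750 probe sets were called, and Stc1 and Adm kept their calls. The labels tie the numbers to nothing shared, and same-numbered samples deviated together at a correlation of 0.121 only. Averaging a gene over its probe sets turned the median of intracellular HIF targets from 0.01 to -0.11. Counting all lists, Stc1 and Adm included, 34 of 36 called genes kept the call under all 13 alternatives, the exceptions being Pam and Arnt; 24 pathway genes were called with PLIER against 25 with RMA.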
